A study of Mus musculus with 18 samples.

Results

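Immunoglobulin variable (V) segment genes encode most of the antigen-binding domain of antibody heavy and light chains. The members described here are the rows of the count table whose Ensembl identifier maps in the GENCODE M21 annotation to a symbol starting with Ighv, Igkv or Iglv and to the type IG_V_gene, with at least 180 counts summed over the 18 libraries. The rule kept 189 of the 216 V segments in the table, which held 55414 gene identifiers in all: 92 of 113 heavy chain segments (Ighv), 94 of 100 kappa light chain segments (Igkv) and 3 of 3 lambda segments (Iglv). The members were chosen by their summed count, so their being expressed is no finding. Igkv5-37 (181 counts), Igkv3-3 (193) and Ighv1-37 (195) lay just inside the minimum, and Ighv1-43 (155), Igkv18-36 (124) and Ighv8-4 (123) just outside. Of the 27 segments left out, 2 had no count in any library.

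Polyadenylated RNA was sequenced from wild type C57BL/6J mice in 2 experiments on exposure to fine airborne particles (PM2.5), in a series whose title names erythrocyte turnover. The first compared whole spleens of 4 samples after 30 days of filtered air with 4 after 30 days of PM2.5. The second compared macrophages isolated from the spleen, 5 libraries with air and 5 with PM2.5 for 30 days. Its text also mentions filtered air following the exposure, without saying whether that was a recovery time. PM2.5 groups are titled CAP, an abbreviation that the labels leave unexpanded, and those titles contain the word Air too. For macrophage PM2.5 replicate 1 the treatment field reads as air while title and description read CAP, and the title decided its group. The labels number biological replicates without tying them to separate mice, so spreads and p-values measure the variation between these samples.

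In a developing B cell, V(D)J recombination joins 1 of many heavy chain V segments to D and J segments, and then 1 kappa or lambda V segment to a light chain J segment. Each B cell clone therefore transcribes mainly 1 heavy and 1 light V segment, and a spleen with many clones shows a broad mixture. Plasma cells, which secrete antibody, hold much more immunoglobulin mRNA per cell than resting B cells. In bulk RNA, fewer cells of a type and less RNA per cell cannot be told apart, and neither can a large clone and many clones with the same segment.

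The segments are short and alike, which limits how surely a read can be assigned. Their coding sequences span 338 to 394 bases (median 351) and resemble the nearest other V segment of the locus at a median of 95% of positions. The last 96 coding bases are printed below from the GENCODE M21 transcripts (GRCm38), in coding direction from 5′ to 3′, for segments that led libraries or stood out in 1 of them. Capitals mark the motif TANTNCTGT, with N for any base, which spells the tyrosine-x-cysteine end of the V domain just before the CDR3 junction.
Ighv1-18: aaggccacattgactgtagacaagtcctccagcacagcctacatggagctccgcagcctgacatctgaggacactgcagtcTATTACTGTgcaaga
Ighv1-26: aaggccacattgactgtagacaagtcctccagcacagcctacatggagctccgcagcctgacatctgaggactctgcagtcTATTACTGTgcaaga
Ighv1-9: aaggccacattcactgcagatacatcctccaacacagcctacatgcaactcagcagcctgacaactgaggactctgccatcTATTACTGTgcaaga
Ighv1-80: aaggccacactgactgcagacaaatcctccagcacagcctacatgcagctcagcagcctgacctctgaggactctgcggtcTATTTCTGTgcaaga
Ighv1-72: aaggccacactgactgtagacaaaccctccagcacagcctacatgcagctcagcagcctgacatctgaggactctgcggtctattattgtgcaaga
Igkv4-63: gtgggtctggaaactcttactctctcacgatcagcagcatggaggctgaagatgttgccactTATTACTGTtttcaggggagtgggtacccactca
Igkv1-117: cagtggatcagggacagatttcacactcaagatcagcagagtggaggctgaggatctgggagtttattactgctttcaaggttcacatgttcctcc
Igkv1-110: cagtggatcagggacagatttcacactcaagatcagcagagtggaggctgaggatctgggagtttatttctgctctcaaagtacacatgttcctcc
Igkv3-4: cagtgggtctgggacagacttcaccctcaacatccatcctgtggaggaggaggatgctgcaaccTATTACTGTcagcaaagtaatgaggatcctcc
Iglv1: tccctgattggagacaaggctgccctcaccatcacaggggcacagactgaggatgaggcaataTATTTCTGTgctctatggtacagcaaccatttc
Ighv1-18 (chr12:114682632-114683065, minus strand) and Ighv1-26 (chr12:114788372-114788805, minus strand) differed at 1 of these 96 bases and at 11 of 351 coding bases. Igkv1-117 (chr6:68121046-68121827, plus strand) and Igkv1-110 (chr6:68270485-68271267, plus strand) differed at 4 and at 10 of 359. Igkv4-63 (chr6:69377944-69378472, minus strand) differed from Igkv4-59, a segment named below, at 23 of 352 coding bases. Other Igkv4 segments may be closer to it. The motif was found within the last 45 coding bases of 141 of 189 members (74.6%) and of 160 of the 216 V segments (74.1%), against 98 of 58555 protein-coding transcripts (0.167%). On the opposite strand it was found in 0 members and in 152 of the transcripts. Ighv1-72 (chr12:115757984-115758461, minus strand), Igkv1-117 and Igkv1-110 spell a tyrosine-x-cysteine end with other codons, which the motif misses, and are printed without capitals. The share of members with the motif is therefore no count of the segments with that end.

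Library totals lay between 16493694 and 33844807 counts. The sum of 10 red pulp macrophage markers was 20608 ± 2917 CPM (counts scaled to a common library total with TMM factors within each experiment) in macrophage air libraries and 564 ± 175 CPM in spleen air libraries. The macrophage preparations also held B-lineage RNA, with 4344 ± 708 CPM for 16 B cell markers in air libraries against 9763 ± 909.8 CPM in spleen. All values are mean ± SD, with n = 4 in each spleen group and n = 5 in each macrophage group. Alb, a liver transcript, had 30.5 and 55.3 CPM in spleen air replicates 3 and 4 and at most 5.97 CPM in the other spleen libraries. The sum of 8 erythroid markers was 1127 ± 1304 CPM in spleen air and 7920.4 ± 6832 CPM in spleen PM2.5 libraries.

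Heavy chain V segments took a larger mean share of all counts after PM2.5 in both experiments, and the groups overlapped in both. In spleen air libraries Ighv members made up 0.0239, 0.0524, 0.0137 and 0.0197% of all counts in replicates 1 to 4. In spleen PM2.5 libraries they made up 0.0942, 0.0881, 0.0409 and 0.0708%. Air replicate 2 exceeded PM2.5 replicate 3, and the other 3 PM2.5 libraries lay above all 4 air libraries. The means were 0.0274 ± 0.0172% and 0.0735 ± 0.0239%. In macrophage air libraries the Ighv share was 0.0816, 0.144, 0.0778, 0.346 and 0.0902%, and in macrophage PM2.5 libraries 0.439, 0.178, 0.326, 0.541 and 0.286%. Air replicate 4 stood above PM2.5 replicates 2, 3 and 5, while the other 4 air libraries lay below all 5 PM2.5 libraries. The means were 0.148 ± 0.114% and 0.354 ± 0.14%.

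Kappa V segments, which pair with the heavy chain in most mouse antibodies, showed the same order of group means. Their share was 0.0739, 0.13, 0.0525 and 0.0697% in the spleen air libraries and 0.175, 0.193, 0.0845 and 0.122% in the spleen PM2.5 libraries. PM2.5 replicates 1 and 2 exceeded all air libraries, and replicates 3 and 4 did not exceed air replicate 2. In macrophages the Igkv share was 0.126, 0.209, 0.12, 0.496 and 0.128% with air and 0.82, 0.262, 0.458, 0.814 and 0.389% with PM2.5. As for the heavy chain, air replicate 4 lay within the PM2.5 range and the other 4 air libraries below it. Group means were 0.0816 ± 0.0338% and 0.143 ± 0.0495% in spleen and 0.216 ± 0.161% and 0.549 ± 0.255% in macrophages. Lambda segments took 0.0121 ± 0.00482% and 0.0164 ± 0.00246% of spleen counts and 0.0148 ± 0.00823% and 0.0314 ± 0.0142% of macrophage counts, with overlapping groups in each experiment. All V segments together had 0.116, 0.196, 0.0746 and 0.0979% in spleen air and 0.286, 0.295, 0.14 and 0.212% in spleen PM2.5 libraries, and 0.216, 0.368, 0.209, 0.871 and 0.228% and 1.29, 0.452, 0.81, 1.4 and 0.722% in the macrophage groups. Between the means of the spleen groups the V share differed by 0.112 percentage points, and by 0.0773 points without both air libraries that held Alb. In macrophages it differed by 0.556 points, and by 0.316 points when PM2.5 replicate 1 was counted as air.

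**Figure D1:**
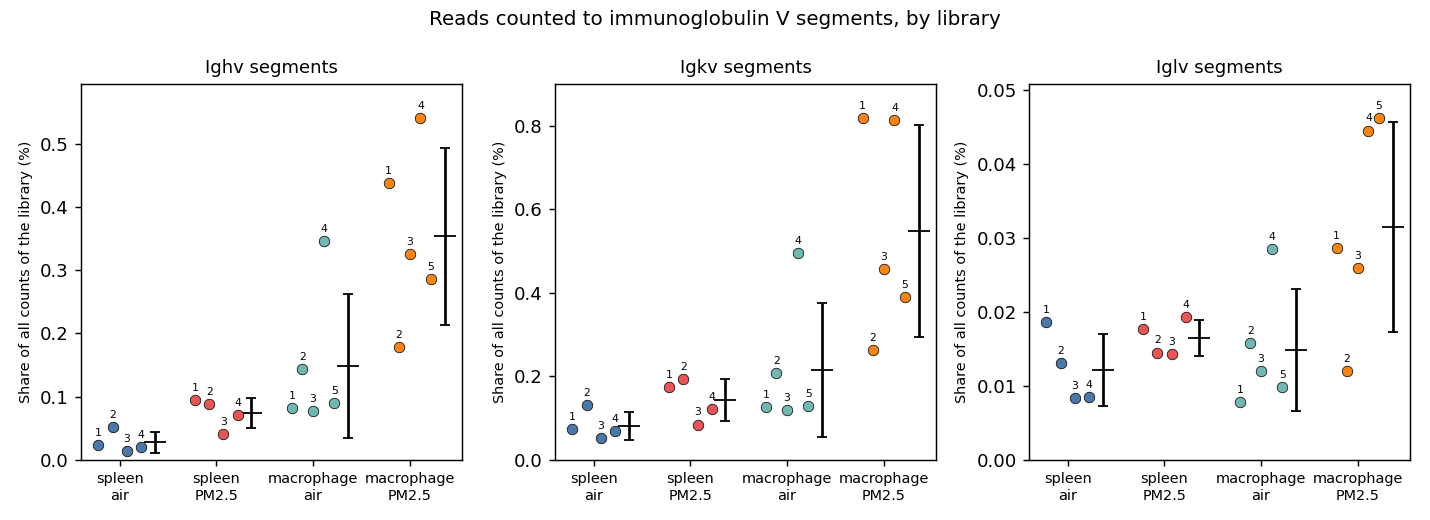
Share of all counts of a library taken by Ighv, Igkv and Iglv members (y axis, percent; 1 panel per locus with its own scale) in the 4 groups (x axis). Points are libraries with their replicate number and the bars give mean and SD; macrophage air replicate 4, with 0.346% Ighv and 0.496% Igkv, sits among the PM2.5 libraries.

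Jchain, the joining chain of polymeric antibody secreted by plasma cells, followed the order of the V share in part. It had 0.0435, 0.0668, 0.0208 and 0.0352% of all counts in the spleen air libraries and 0.0871, 0.096, 0.0602 and 0.0678% in the spleen PM2.5 libraries. In macrophages it had 0.0365, 0.0674, 0.0362, 0.16 and 0.0424% with air and 0.33, 0.0881, 0.146, 0.309 and 0.137% with PM2.5, so air replicate 4 was again the highest air library and PM2.5 replicates 1 and 4 the highest of all. The summed level of 15 plasma cell markers was 1069 ± 129.9 CPM (range 927 to 1231) and 1115 ± 136 CPM (992 to 1280.5) in spleen, and 1089 ± 222 CPM (916 to 1469) and 1484 ± 345 CPM (1167 to 1869) in macrophages. The 16 B cell markers summed to 9763 ± 909.8 CPM (8889 to 10954) and 8590.3 ± 1127 CPM (7031 to 9618) in spleen, a lower mean with PM2.5 and overlapping ranges, and to 4344 ± 708 CPM (3508 to 5409) and 4713 ± 846 CPM (4038 to 6052) in macrophages. The 13 immunoglobulin constant region and Jchain genes summed to 10042 ± 2127 and 11919.5 ± 2438 CPM in spleen and to 11540.5 ± 8731 and 30728 ± 16668 CPM in macrophages. Of these 13 means, 9 were higher with PM2.5 in spleen, all but Ighd, Iglc1, Iglc2 and Iglc3, and 13 in macrophages. The plasma cell list had 10 of 15 higher means with PM2.5 in spleen and 14 of 15 in macrophages, and the B cell list 1 of 16 and 13 of 16.

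Summed markers of other cell types had unequal group means as well. The 10 red pulp macrophage markers summed to 564 ± 175 CPM (435 to 822) with air and 862 ± 134 CPM (753 to 1040.1) with PM2.5 in spleen, where 10 of 10 means were higher. In macrophages they summed to 20608 ± 2917 CPM (17615 to 24790.3) and 18669 ± 2412 CPM (14653 to 20881), with 1 of 10 higher. The 8 T cell markers had 1275 ± 201 CPM (1107 to 1565) and 987 ± 121 CPM (845 to 1135) in spleen, with 1 of 8 means higher, and 159 ± 20.7 CPM (139 to 182) and 161 ± 12.5 CPM (144 to 177) in macrophages, with 7 of 8 higher. Of the 10 germinal centre genes, 5 had a higher mean in spleen (199.9 ± 40.1 and 199.6 ± 35.3 CPM in sum) and 7 in macrophages (226 ± 26.5 and 248 ± 25.1 CPM). The V(D)J list holds 7 genes of recombination and of the surrogate light chain, most known from B cell precursors. Of these, 0 had a higher mean in spleen (52.3 ± 11.6 and 38.4 ± 3.35 CPM) and 6 in macrophages (8.98 ± 2.22 and 11.3 ± 1.82 CPM). Vpreb3 made up most of these sums, with 46.6 and 34.1 CPM in spleen and 8.6 and 10.7 CPM in macrophages. Only 2 of the 7 had enough counts for testing in spleen and 1 in macrophages. The 8 erythroid means were all higher with PM2.5 in both experiments. In macrophages they summed to 4966 ± 2413 CPM (2212 to 7728) with air and 5264.5 ± 1198 CPM (3822 to 6585.5) with PM2.5, with overlapping ranges. No gene of these lists passed edgeR's quasi-likelihood test at an adjusted p of 0.05 in either experiment, and their part in the V segment levels was not tested. All were detected in both experiments except Vpreb2, with 0 counts in all libraries, and Igll1, with 0 in the spleen libraries, both of the V(D)J list.

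Kappa V counts were also set against the counts of Igkc, the kappa constant region on the same mRNA. The spleen air libraries had 31.9, 39.8, 33.2 and 29.5 Igkv counts per 100 Igkc counts, and the spleen PM2.5 libraries had 56.9, 51.1, 38.7 and 47.6. PM2.5 replicate 3 lay below air replicate 2 and the other 3 above all air libraries, with means of 33.6 ± 4.42 and 48.6 ± 7.6. Ighv counts per 100 heavy chain constant region counts averaged 4.24 ± 1.48 and 8.92 ± 1.8 in spleen, and air replicate 2 (6.39) just exceeded PM2.5 replicate 3 (6.23). In macrophages both ratios were higher, and PM2.5 replicate 1 had the lowest of each. There the Igkv ratio was 88.8 ± 4.13 with air and 82.4 ± 13.3 with PM2.5, and the Ighv ratio 18 ± 0.685 and 17.9 ± 2.96. Preparation and experiment cannot be told apart in the contrast between spleen and macrophages.

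Counted segment by segment, the higher means were spread over most members. In spleen, 163 of 189 members had a higher mean CPM with PM2.5, beside 52.8% of all genes with as many counts, and 73 of 189 had a mean at least 2 times higher, beside 9.27%. By locus these were 90 of 92 Ighv, 71 of 94 Igkv and 2 of 3 Iglv members with a higher mean. In 22 of 189 members, 18 of them Ighv, every PM2.5 library lay above every air library, beside 4.52% of all such genes. In 0 members did every PM2.5 library lie below, beside 4.49%. The count of 22 was 56 without spleen air replicate 2, the air library with the highest V share, beside 9.15% of all genes, and 48 without PM2.5 replicate 3, the PM2.5 library with the lowest, beside 6.44%. In macrophages, 170 of 189 members had a higher mean with PM2.5 (80 of 92 Ighv, 87 of 94 Igkv and 3 of 3 Iglv), beside 52.5% of all genes, and 104 of 189 had a mean at least 2 times higher, beside 2.9%. All PM2.5 libraries lay above all air libraries in 11 members, beside 1.47%, and below in 0, beside 0.795%. The count of 11 was 42 without macrophage air replicate 4, beside 3.65% of all genes, and 20 without air replicate 2, beside 1.99%. It was 26, 18 and 21 without PM2.5 replicates 2, 3 and 5, beside 2.14, 1.95 and 2.6%, and 2 with PM2.5 replicate 1 counted as air, beside 1.16%.

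No member passed edgeR's quasi-likelihood test over all genes in any comparison. In spleen, 172 of 189 members passed the filter on low counts and 0 had an adjusted p under 0.05, beside 0.0121% of the 16551 genes tested. At an unadjusted p under 0.05, 60 were higher, beside 8.93% of all genes, and 1 was lower, beside 7.76%. In macrophages 183 members passed the filter and 0 were called, beside 0% of 15696 genes. At an unadjusted p under 0.05, 92 were higher, beside 6.24%, and 0 lower, beside 4.61%. DESeq2 called 25 of 182 members in spleen, all higher, where it called 4.43% of all genes, and 34 of 172 in macrophages, all higher, where it called 0.955%. The median log2 fold change of the tested members was 0.82 in spleen, against 0.02 for all genes, and 1.08 in macrophages, against 0.01. A fitted fold change above 0 was found for 152 of the 172 tested in spleen, beside 51.8% of all genes, and for 167 of the 183 tested in macrophages, beside 51.4%. The median was 0.52 in spleen without both air libraries with Alb, and 0.63 in macrophages with PM2.5 replicate 1 counted as air. edgeR called 7 members without spleen air replicate 2, where it called 1.28% of all genes, and 2 without spleen PM2.5 replicate 1, beside 0.804%. It called 5 without macrophage air replicate 4, beside 0.105%, and 2 without macrophage PM2.5 replicate 2, beside 0.0192%.

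**Figure D2:**
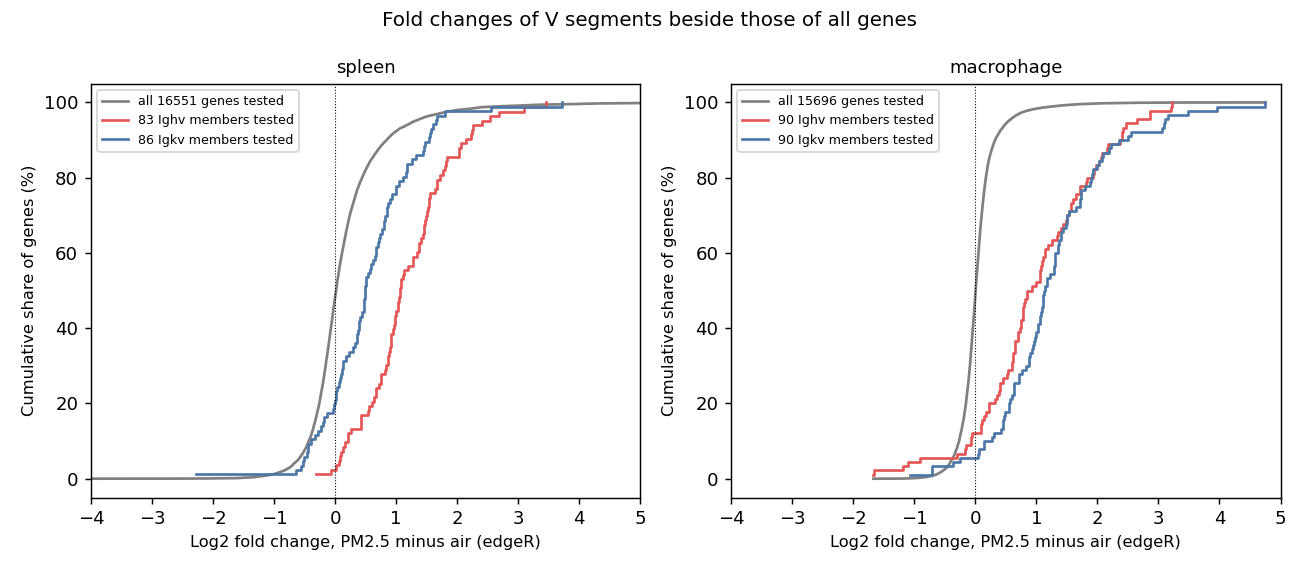
Cumulative share of genes (y axis, percent) by edgeR log2 fold change of PM2.5 minus air (x axis) in spleen (left) and macrophages (right) for tested Ighv members, tested Igkv members and all genes tested. Both member curves lie to the right of the curve of all genes over most of their course, with a median of 0.82 in spleen and 1.08 in macrophages for all tested members.

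Among heavy chain segments of the spleen, Ighv7-3 (chr12:114153180-114153644, minus strand) had the smallest p. Its level was 1.86, 3.96, 2.7 and 2.56 CPM in air replicates 1 to 4 and 10.6, 10.1, 7.53 and 18.4 CPM in PM2.5 replicates 1 to 4. Every PM2.5 library lay above every air library, and the means were 2.77 ± 0.874 and 11.7 ± 4.7 CPM (log2 fold change 2.07, SE 0.339, adjusted p = 0.0845). Ighv1-82 (chr12:115952538-115953005, minus strand) had 5.84, 9.47, 3.97 and 5.43 CPM with air and 15.6, 26, 17.1 and 19.7 CPM with PM2.5 (log2 fold change 1.66, SE 0.283, adjusted p = 0.0845). The groups did not overlap for this segment, which belongs to Ighv1, the largest heavy chain family. Ighv2-3 (chr12:113611187-113611617, minus strand) had 1.73, 1.23, 0.952 and 1.12 CPM with air and 6.03, 3.71, 3.27 and 4.06 CPM with PM2.5, again without overlap (log2 fold change 1.76, SE 0.353, adjusted p = 0.105). None of these passed the threshold of 0.05 in the main edgeR fit, and the adjusted p of all 3 was 0.689 without both air libraries that held Alb. Over all edgeR and DESeq2 settings used, the lowest adjusted p was 2.98e-06 for Ighv7-3, 6.97e-06 for Ighv1-82 and 0.00109 for Ighv2-3.

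Of the kappa segments, Igkv2-109 (chr6:68302427-68303158, plus strand) had the smallest p in spleen. It stood at 8.5, 8.83, 9.73 and 8.23 CPM with air and 19.6, 15.8, 16 and 21.3 CPM with PM2.5, with little spread inside either group and no overlap (log2 fold change 1.04, SE 0.179, adjusted p = 0.0845). For Igkv2-109 the adjusted p lay between 8.09e-05 and 0.689 over all edgeR and DESeq2 settings used. Lower fitted values with the smallest p were all in kappa segments. Igkv6-13 (chr6:70457501-70458036, minus strand) had 2.06, 12.8, 1.59 and 55.1 CPM with air and 3.37, 2.79, 2.03 and 6.53 CPM with PM2.5, so that its air mean rested on replicate 4 (log2 fold change -2.28, SE 0.944, adjusted p = 0.261). Without that library the log2 fold change was -0.58. Igkv4-58, Igkv5-45 and Igkv1-133 had log2 fold changes of -0.53, -0.56 and -0.44, each with overlapping groups. These were -0.26 for Igkv4-58 without PM2.5 replicate 3, -0.15 for Igkv5-45 without air replicate 4 and -0.26 for Igkv1-133 without air replicate 3.

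In macrophages Igkv1-122, Ighv1-59, Igkv2-137 and Igkv9-120 had the smallest p among the higher segments. Igkv1-122 (chr6:68016718-68017488, plus strand) had 3.68, 3.21, 3.86, 6.22 and 3.63 CPM in air replicates 1 to 5 and 24.2, 8.71, 25.5, 11.9 and 13.4 CPM in PM2.5 replicates 1 to 5. All PM2.5 values lay above all air values, including that of air replicate 4 (log2 fold change 2.02, SE 0.308, adjusted p = 0.183). In spleen the same segment had 2.83 ± 1.54 and 2.84 ± 0.778 CPM. Ighv1-59 (chr12:115335082-115335514, minus strand) had 2.08, 2.1, 3.93, 4.05 and 2.97 CPM with air and 24.2, 7.34, 7.79, 7.04 and 17.2 CPM with PM2.5 (log2 fold change 2.06, SE 0.383, adjusted p = 0.258). It was 1 of 3 segments, with Ighv1-76 and Ighv2-9-1, whose groups did not overlap in either experiment, 3 of the 22 in spleen and 3 of the 11 in macrophages, beside 0.0723% of all genes with as many counts. Those 3 were singled out after the values were seen. Igkv9-120 (chr6:68049983-68050456, plus strand) also did not overlap, with 16.4, 23.6, 16.2, 53.7 and 15 CPM and 187, 107, 56.7, 76.7 and 97 CPM (log2 fold change 2.07, SE 0.403, adjusted p = 0.258). Igkv2-137 (chr6:67555497-67556216, plus strand) had 13.6, 18.4, 16.9, 27.9 and 12 CPM with air and 70.6, 26.7, 100.4, 36.2 and 93.9 CPM with PM2.5, where PM2.5 replicate 2 fell just inside the air range (log2 fold change 1.89, SE 0.364, adjusted p = 0.258). With PM2.5 replicate 1 counted as air, the log2 fold changes were 0.998 for Igkv1-122, 0.59 for Ighv1-59, 0.69 for Igkv9-120 and 1.27 for Igkv2-137.

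The 4 lower segments with the smallest p in macrophages each had 1 air library far above the others. Ighv1-75 (chr12:115833950-115834418, minus strand) had 9.51, 27.6, 8.23, 239 and 11.8 CPM with air and 40.2, 6.7, 19.9, 16.3 and 11.3 CPM with PM2.5 (log2 fold change -1.66, SE 0.92, adjusted p = 0.545). Its log2 fold change was 0.40 without air replicate 4. Ighv2-4 had 0.583, 0.221, 0.551, 16.1 and 0.275 CPM with air against 0.502, 0.807, 0.713, 1.07 and 2.36 CPM, and its log2 fold change of -1.67 became 1.36 without that library. For Ighv9-2 and Igkv3-7 the high air library was replicate 2, with 19.6 and 92.1 CPM, and their log2 fold changes of -1.18 and -1.08 became 0.70 and 0.70 without it.

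The PM2.5 effect in macrophages minus that in spleen was tested as a contrast over all 18 libraries. edgeR called 0 of 189 members, beside 1.46% of 17779 genes. At an unadjusted p under 0.05 it was higher in macrophages for 27 members, beside 10.3% of all genes, and lower for 8, beside 10.3%. DESeq2 called 5 of 185 members, all higher, beside 5.34% of all genes. The median difference of the members was 0.40 on the log2 scale, against -0.03 for all genes, and the smallest adjusted p of a member was 0.0515. Single libraries moved that median. It was 0.06 without spleen air replicate 2, 0.22 without spleen PM2.5 replicate 3, 0.22 without macrophage air replicate 1, and 0.25 and 0.20 without macrophage PM2.5 replicates 1 and 5. It was 0.68 without macrophage air replicate 4 and 0.67 without both spleen air libraries with Alb. With macrophage PM2.5 replicate 1 counted as air it was -0.11, and 87 of 189 differences were above 0. Calls of members numbered 3 without macrophage air replicate 4 (beside 0.927% of all genes) or PM2.5 replicate 2 (1.67%). They numbered 2 without spleen air replicate 2 (7.2%), and 1 without spleen air replicate 4 (0.526%) or PM2.5 replicate 2 (2.02%).

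The heavy chain segment with the most counts held 5.8 to 19% of Ighv counts in a library, and 10 different segments took that place over the 18 libraries. Shares here are of the Ighv counts of a library, not corrected for length, and dividing by exonic length left the leading segment the same in 17 of 18 libraries. Each share carries its 95% Wilson interval, which covers counting error only, since reads without molecular identifiers are not independent molecules. In spleen air, replicate 1 was led by Ighv1-26 with 10.6% (9.7 to 11.6%), replicate 2 by Ighv1-26 with 9.32% (8.75 to 9.92%) and replicate 3 by Ighv1-26 with 6.48% (5.63 to 7.45%). Ighv1-26 thus led 3 of the 4. Replicate 4 was led by Ighv2-2 with 10.2% (9.21 to 11.3%), a segment at most 1.97% in the other 7 spleen libraries. In spleen PM2.5, replicate 1 was led by Ighv1-18 with 19% (18.5 to 19.6%), the highest share of any Ighv segment in the 18 libraries. Replicate 2 was led by Ighv1-9 with 14.4% (13.9 to 14.9%), replicate 3 by Ighv3-6 with 8.17% (7.58 to 8.8%) and replicate 4 by Ighv1-18 with 7.08% (6.65 to 7.54%). The mean share of the leading segment was 9.15 ± 1.86% in air and 12.2 ± 5.59% in PM2.5 spleens, and PM2.5 replicates 3 and 4 lay within the air range.

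In macrophage air libraries the leading Ighv segments all differed. They were Ighv5-4 with 8.31% (7.95 to 8.68%) in replicate 1, Ighv1-82 with 6.94% (6.64 to 7.26%) in replicate 2 and Ighv5-17 with 5.8% (5.51 to 6.12%) in replicate 3. Replicate 4 was led by Ighv1-9 with 13.2% (12.9 to 13.4%) and replicate 5 by Ighv1-26 with 6.53% (6.17 to 6.92%). Only replicate 4 had a leader above 10%, and it was also the air library with the highest V share. With PM2.5, replicate 1 was led by Ighv1-26 with 14.3% (14.1 to 14.5%), closely followed by Ighv1-9 with 14.3%. Replicate 2 was led by Ighv1-80 with 14.8% (14.5 to 15.1%), replicate 3 by Ighv1-9 with 15.7% (15.5 to 15.9%), replicate 4 by Ighv1-9 with 10.9% (10.7 to 11%) and replicate 5 by Ighv6-3 with 6.96% (6.79 to 7.14%). Leaders stood above 10% in 4 of 5 PM2.5 libraries and 1 of 5 air libraries, with mean shares of 12.5 ± 3.62% and 8.15 ± 2.95%.

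The effective number of segments, the inverse of the summed squared shares, gives the number of equally used segments that would have the same evenness. For Ighv it was 32.8, 32.9, 40.7 and 29.5 in spleen air and 17.5, 22.4, 40.8 and 37 in spleen PM2.5 libraries. PM2.5 replicates 1 and 2 were the least even, replicate 4 lay within the air range and replicate 3 just above it, with means of 34 ± 4.76 and 29.4 ± 11.2. In macrophages it was 35.2, 33.8, 37.4, 19.6 and 35.4 with air and 15.3, 22.3, 15.6, 18.5 and 31.2 with PM2.5. Air replicate 4 fell among the PM2.5 libraries, and the other 4 air libraries were more even than all 5 PM2.5 libraries. The means were 32.3 ± 7.23 and 20.6 ± 6.57, a difference of -11.7 that was -14.9 without air replicate 4 and -7.54 with PM2.5 replicate 1 counted as air. In spleen the difference was -4.51, and -0.54 without PM2.5 replicate 1. The 5 most used Ighv segments held 30.1 ± 7.06% of Ighv counts in macrophage air and 42.8 ± 9.04% in macrophage PM2.5 libraries, and 28.1 ± 4.14% and 32.1 ± 8.09% in the spleen groups. Macrophage air replicate 4, the least even air library, also had the highest V share among them.

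**Figure D3:**
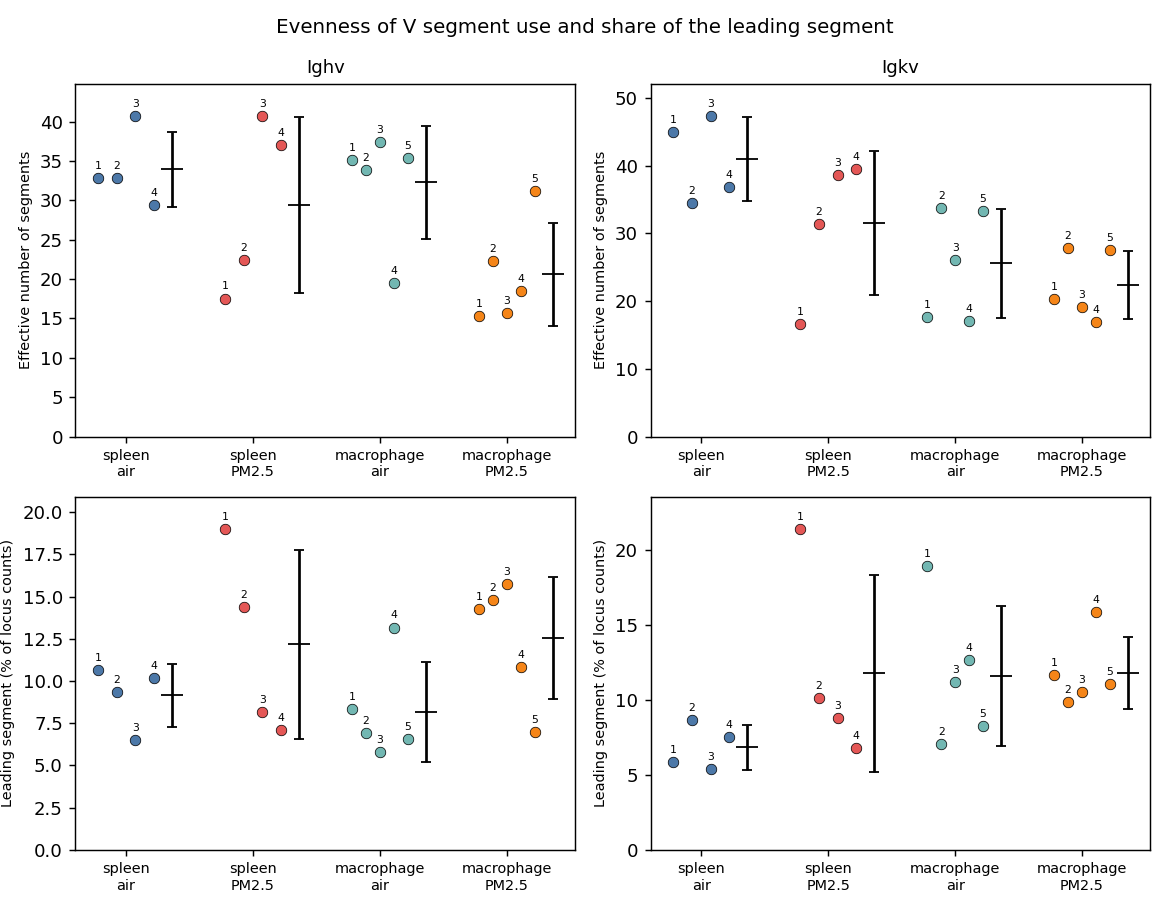
Effective number of V segments (upper row) and share of the leading segment in the V counts of the locus (lower row, percent) for Ighv (left) and Igkv (right) in the 4 groups (x axis). Points are libraries with their replicate number, and the bars give mean and SD; the macrophage PM2.5 libraries have Ighv effective numbers of 15.3 to 31.2 and 4 of 5 macrophage air libraries lie above them.

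Several heavy chain segments were leaders more than once. Ighv1-26 led 5 libraries, Ighv1-9 led 4 and Ighv1-18 led 2. Ighv1-9 (chr12:114583569-114584002, minus strand) had 7.44, 28.5, 6.82 and 1.68 CPM in spleen air and 51.4, 129, 9.02 and 19.8 CPM in spleen PM2.5 libraries, 33.5, 50.5, 11.1, 451 and 36 CPM in macrophage air and 658, 25.7, 516, 583 and 40.8 CPM in macrophage PM2.5 libraries. Its high libraries were spleen PM2.5 replicate 2, macrophage air replicate 4 and macrophage PM2.5 replicates 1, 3 and 4, so the groups overlapped in both experiments. The log2 fold changes were 2.23 (SE 0.864, adjusted p = 0.233) and 1.65 (SE 1.07, adjusted p = 0.603). Ighv1-80 (chr12:115912344-115912776, minus strand) had 18.9, 75.1, 11.8, 255 and 50.8 CPM with air and 342, 260.5, 359, 539 and 114 CPM with PM2.5 in macrophages. Apart from air replicate 4, its air values lay below the whole PM2.5 range, and the log2 fold change was 1.97 (SE 0.719, adjusted p = 0.374). Ighv1-26 had 27.8, 47.4, 9.57 and 11.5 CPM with air and 57.9, 35.7, 17.1 and 36 CPM with PM2.5 in spleen, where the groups overlapped and the log2 fold change was 0.61 (SE 0.489, adjusted p = 0.569). In macrophages it had 44.3, 79.1, 44, 172 and 60.5 CPM with air and 659, 90.0, 69, 142 and 171 CPM with PM2.5, with PM2.5 replicate 1 far above the rest. Ighv1-18, whose printed end differs from that of Ighv1-26 at 1 base, had 5.11, 15.1, 5.39 and 2.56 CPM with air and 167, 20.8, 8.67 and 47.5 CPM with PM2.5. PM2.5 replicate 1 alone held most of that difference, and the log2 fold change was 3.10 (SE 0.837, adjusted p = 0.135).

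Kappa repertoires were likewise headed by different segments in different libraries, and the leaders were unchanged per exonic length in 18 of 18 libraries. In spleen air the leaders were Igkv1-117 with 5.84% (5.44 to 6.28%) in replicate 1, Igkv3-4 with 8.64% (8.29 to 9.01%) in replicate 2, Igkv1-117 with 5.37% (4.96 to 5.81%) in replicate 3 and Igkv6-13 with 7.5% (7.04 to 7.99%) in replicate 4. All stayed under 10%. In spleen PM2.5 they were Igkv4-63 with 21.4% (21 to 21.9%) in replicate 1, Igkv9-124 with 10.1% (9.8 to 10.4%) in replicate 2, Igkv1-135 with 8.81% (8.38 to 9.26%) in replicate 3 and Igkv1-117 with 6.8% (6.47 to 7.13%) in replicate 4. The share of Igkv4-63 in replicate 1 was the highest of any kappa segment in the 18 libraries. Group means of the leading share were 6.84 ± 1.51% and 11.8 ± 6.57%.

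In macrophage air libraries the kappa leaders were Igkv5-39 with 18.9% (18.5 to 19.4%) in replicate 1, Igkv17-127 with 7.04% (6.79 to 7.31%) in replicate 2, Igkv1-110 with 11.2% (10.8 to 11.5%) in replicate 3, Igkv3-2 with 12.6% (12.4 to 12.9%) in replicate 4 and Igkv1-110 with 8.27% (7.93 to 8.62%) in replicate 5. With PM2.5 they were Igkv4-59 with 11.7% (11.5 to 11.8%) in replicate 1, Igkv4-55 with 9.84% (9.62 to 10.1%) in replicate 2, Igkv19-93 with 10.6% (10.4 to 10.7%) in replicate 3, Igkv3-4 with 15.9% (15.7 to 16.1%) in replicate 4 and Igkv1-110 with 11% (10.9 to 11.2%) in replicate 5. Mean leading shares were 11.6 ± 4.67% and 11.8 ± 2.38%. The effective number of Igkv segments was 44.9, 34.5, 47.3 and 36.8 in spleen air and 16.5, 31.4, 38.6 and 39.5 in spleen PM2.5 libraries, with means of 40.9 ± 6.19 and 31.5 ± 10.6. PM2.5 replicates 1 and 2 lay below the air range and the other 2 inside it, and the mean difference of -9.40 was -1.80 with the leading segment of each library left out. In macrophages it was 17.6, 33.7, 26, 17.1 and 33.3 with air and 20.3, 27.9, 19.2, 16.9 and 27.5 with PM2.5, with means of 25.6 ± 8.09 and 22.3 ± 5.02 and groups that overlapped throughout.

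**Figure D4:**
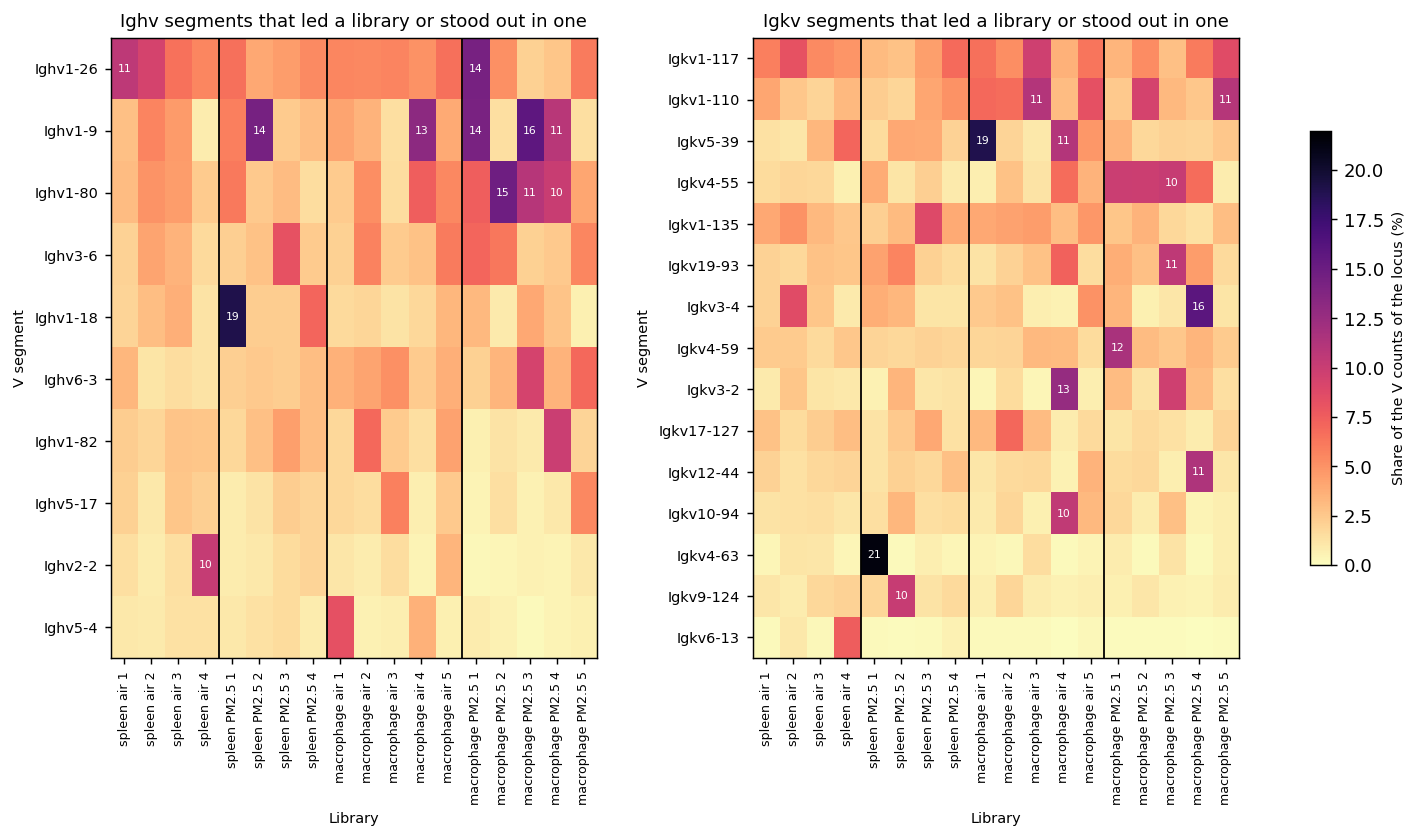
Share of the V counts of the locus (colour, percent) for the Ighv (left) and Igkv (right) segments that led a library or held at least 10% of a library at 5 or more times their median share in the other libraries of the experiment (rows), in each of the 18 libraries (columns; vertical lines separate the groups). Rounded shares of at least 10% are printed in the cells; Igkv4-63 and Ighv1-18 reach 21% and 19% in spleen PM2.5 replicate 1, and Ighv1-9 reaches 10% or more in 5 libraries.

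Some segments held a far larger share in 1 library than in most others. Taking segments with at least 10% of the V counts of their locus in a library and at least 5 times their median share in the other libraries of the experiment, 10 cases were found, 2 heavy and 8 kappa. Igkv4-63 held 21.4% (21 to 21.9%) of the Igkv counts of spleen PM2.5 replicate 1, 7444 counts, and a median of 0.419% in the other 7 spleen libraries. That was 51.2 times the median, and the highest other spleen library had 1.19%. In the same library Ighv1-18 held 19% (18.5 to 19.6%) of Ighv counts against a median of 2.32%, and the highest other library was PM2.5 replicate 4 with 7.08%. Whether the heavy and the kappa segment came from the same cells was not tested and is not resolved by counts per gene. In CPM, Igkv4-63 had 3.39, 15, 5.87 and 2.99 with air and 348, 3.61, 5.75 and 4.47 with PM2.5, so that its log2 fold change of 3.72 (SE 1.42, adjusted p = 0.226) rested on 1 library.

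The other cases differed in how high the next library was. Ighv2-2 held 10.2% (9.21 to 11.3%) of the Ighv counts of spleen air replicate 4 against a median of 1.42% and at most 1.97% elsewhere. Igkv9-124 held 10.1% (9.8 to 10.4%) of the Igkv counts of spleen PM2.5 replicate 2 against 1.65% and at most 2%. Such segments were thus found with air and with PM2.5. Igkv5-39 held 18.9% (18.5 to 19.4%) of macrophage air replicate 1 and 11.1% (10.9 to 11.3%) of air replicate 4, against a median of 2.02%, so 2 libraries were high for this segment. Air replicate 4 also had 12.6% (12.4 to 12.9%) Igkv3-2 and 10.4% (10.2 to 10.6%) Igkv10-94, against medians of 1.39% and 0.907%, and the next highest libraries had 9.69% and 3.2%. In macrophage PM2.5 replicate 4, Igkv3-4 held 15.9% (15.7 to 16.1%) and Igkv12-44 11.4% (11.3 to 11.6%), against medians of 1.12% and 1.62% and next highest shares of 5% and 3.46%. Counted by group, 1 case lay in spleen air, 3 in spleen PM2.5, 4 in macrophage air and 2 in macrophage PM2.5 libraries.

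The lambda locus of the mouse is small, and Iglv1 had the most counts of it in every library, although per exonic length Iglv2 led macrophage PM2.5 replicate 4. In spleen Iglv1 (chr16:19085017-19085500, minus strand) had 142, 65.6, 38.9 and 47.6 CPM with air and 98.1, 100.2, 72.6 and 126 CPM with PM2.5, with overlap through air replicate 1 (log2 fold change 0.44, SE 0.35, adjusted p = 0.567). In macrophages it had 40.1, 102, 81.4, 212 and 73 CPM and 206, 81.3, 215, 190.4 and 332 CPM, again with overlap (log2 fold change 1.01, SE 0.42, adjusted p = 0.414). Iglv2, which resembles Iglv1 with 11 differing bases of 351, had 11.7, 16.1, 16, 34.8 and 12 CPM and 66.6, 11.1, 20.7, 182 and 87.1 CPM in macrophages (log2 fold change 2.02, SE 0.635, adjusted p = 0.315). PM2.5 replicate 4 was its highest library and PM2.5 replicate 2 its lowest. Iglv3 had 38.8 ± 8.23 and 35.7 ± 6.13 CPM in spleen (log2 fold change -0.12, SE 0.182, adjusted p = 0.779) and 27.9 ± 9.72 and 37.1 ± 18.8 CPM in macrophages (log2 fold change 0.41, SE 0.312, adjusted p = 0.656). The kappa part of all light chain V counts was 86.5 ± 4.82% and 88.9 ± 3.56% in the spleen groups and 93.1 ± 1.44% and 94.2 ± 2.82% in the macrophage groups, with overlap in both experiments.

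Families were compared by their mean share. Ighv1, the largest family, holds 46 of the 92 Ighv members and had 60.1 ± 7.18%, 63.8 ± 8.49%, 55.6 ± 9.9% and 63.2 ± 11% of Ighv counts in spleen air, spleen PM2.5, macrophage air and macrophage PM2.5 libraries. Ighv5, a family of 9 members close to the D and J segments, had 6.5 ± 1.65%, 5.74 ± 1.55%, 8.25 ± 4.19% and 3.94 ± 2.38% in the same order. Among kappa segments Igkv4, with 26 members, had 16 ± 2.15%, 19.3 ± 11.1%, 17.8 ± 2.37% and 23.6 ± 6.82%. Igkv1, with 8 members, had 13.9 ± 2.5%, 13.1 ± 5.11%, 18.8 ± 5.79% and 17.7 ± 4.83%. Groups overlapped within both experiments for these families. Igkv6, also with 8 members, had 14.2 ± 3%, 9.58 ± 1.95%, 6.27 ± 0.836% and 7.62 ± 3.54%.

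Position in the locus was described by dividing the members into 4 groups of 23 or 24 by distance from the nearest J segment. The Ighv members lie on the minus strand of chromosome 12 between 113578504 and 116000461 (GRCm38) and the Igkv members on chromosome 6 between 67555497 and 70704177, where 36 are in the orientation of the J segments and 58 in the opposite one. The 23 Ighv members nearest to J had 16.4 ± 4.83% and 14.4 ± 3.58% of Ighv counts in the spleen groups and 20.4 ± 7.6% and 11.3 ± 5.45% in the macrophage groups. The third group, which contains Ighv1-9, Ighv1-18 and Ighv1-26, had 32.6 ± 6.36%, 40.9 ± 9.31%, 31.3 ± 7.67% and 36.1 ± 10.2%. For Igkv the nearest 24 members had 27.9 ± 3.29%, 22.4 ± 4.88%, 21.2 ± 3.63% and 23 ± 5.34%, and the farthest 23 had 31.5 ± 1.77%, 34 ± 8.01%, 33.3 ± 9.43% and 29.5 ± 8.92%. Groups overlapped in each of these within an experiment.

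**Figure D5:**
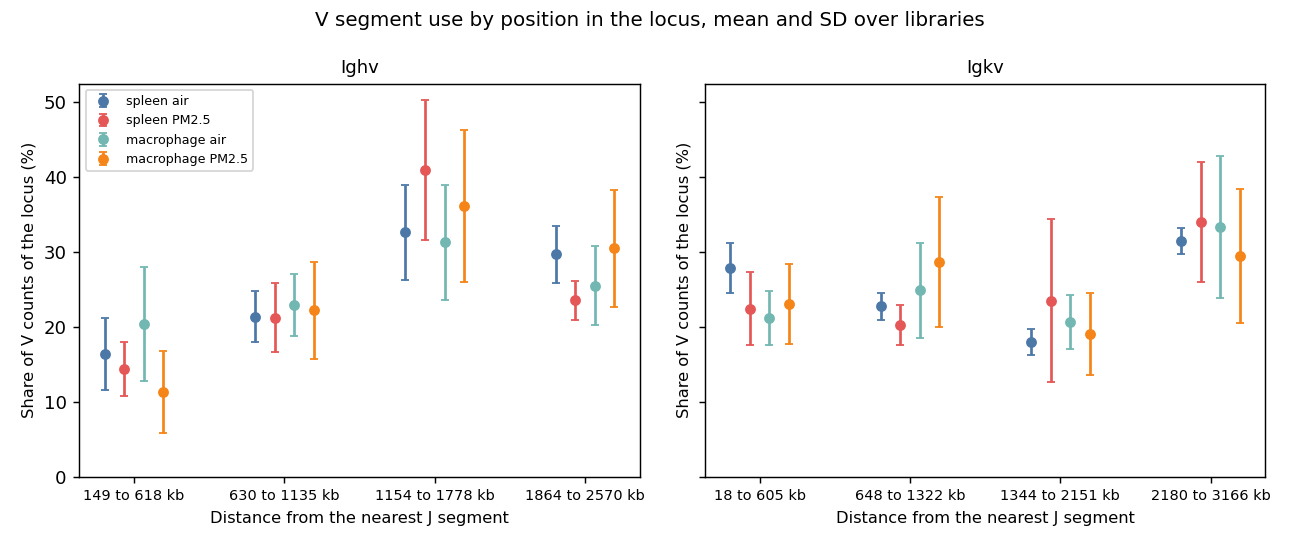
Share of V counts of the locus (y axis, percent) held by each of 4 groups of members, ordered by distance from the nearest J segment (x axis, kb), for Ighv (left) and Igkv (right). Points are group means and bars are SD over libraries; the nearest Ighv group has 20.4 ± 7.6% in macrophage air and 11.3 ± 5.45% in macrophage PM2.5 libraries.

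Some V segments are known for particular antigens. Ighv11-2 with Igkv14-126 and Ighv12-3 with Igkv4-91 form receptors for phosphatidylcholine that are typical of B-1a cells. In spleen, Ighv11-2 (chr12:114048241-114048812, minus strand) had 0.929, 2.25, 0.423 and 0.374 CPM with air and 2.29, 4.15, 3.22 and 9.41 CPM with PM2.5 (log2 fold change 2.25, SE 0.636, adjusted p = 0.141). The groups did not overlap, but air replicate 2 lay just below PM2.5 replicate 1. With such low air levels, Ighv11-2 may have passed the filter on low counts only through the PM2.5 libraries. Its share of Ighv counts did overlap between the groups, at 0.18 to 0.442% with air and 0.261 to 1.4% with PM2.5. It matches the segment Ighv11-1 at 98.9% of coding bases, so reads of the pair may have been split between them. Igkv14-126 had 6.24, 16.2, 4.28 and 4.87 CPM with air and 17.3, 26.2, 6.89 and 60.3 CPM with PM2.5, highest in PM2.5 replicate 4, as for Ighv11-2 (log2 fold change 1.80, SE 0.611, adjusted p = 0.18). In macrophages the same segments had 3.74 ± 1.41 and 5.04 ± 1.39 CPM and 10.4 ± 3.07 and 19.4 ± 10.7 CPM. As a share of Ighv counts, Ighv11-2 had a lower mean with PM2.5 there, 0.346 ± 0.238% with air and 0.152 ± 0.0478% with PM2.5. Ighv12-3 had 0.914 ± 0.538 and 2.38 ± 2.24 CPM in spleen (log2 fold change 1.37, SE 0.677, adjusted p = 0.341), and Igkv4-91 had 8.01 ± 2.29 and 14.7 ± 6.3 CPM (log2 fold change 0.87, SE 0.352, adjusted p = 0.251), each with overlapping groups. The 8 markers of B-1 and marginal zone B cells summed to 628 ± 51.8 and 591 ± 32.9 CPM in spleen, where 2 of 8 had a higher mean with PM2.5, and to 508 ± 29.1 and 491 ± 40.6 CPM in macrophages, where 6 of 8 did. edgeR called 0 of them.

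Ighv7-1 and Igkv7-33 form the T15 receptor for phosphorylcholine, a component of bacterial cell walls and oxidized lipids. Ighv7-1 had 0.332, 4.65, 0.635 and 0.437 CPM with air and 5.28, 26.2, 2.58 and 5.45 CPM with PM2.5 in spleen, where air replicate 2 overlapped the PM2.5 range (log2 fold change 2.68, SE 0.922, adjusted p = 0.186). It too may have passed the filter only through the PM2.5 libraries. Igkv7-33 was too low in spleen for the test, with 0.133, 0.321, 0.423 and 0 CPM with air and 1.68, 0.492, 0.595 and 9.93 CPM with PM2.5. In macrophages Ighv7-1 had 14.7 ± 4.93 and 30.6 ± 23.5 CPM (log2 fold change 1.06, SE 0.504, adjusted p = 0.48) and Igkv7-33 1.6 ± 0.374 and 3.54 ± 2.68 CPM (log2 fold change 1.13, SE 0.473, adjusted p = 0.418). Ighv1-72, the main heavy chain segment in the response of C57BL/6 mice to the hapten NP, had 6.31, 11.9, 3.86 and 3.37 CPM with air and 21.9, 24.3, 11.4 and 21.9 CPM with PM2.5 in spleen. PM2.5 replicate 3 lay just below air replicate 2 (log2 fold change 1.64, SE 0.395, adjusted p = 0.124). It matches Ighv1-62-3 at 99.1% of coding bases. In macrophages its means were 28.9 ± 31.7 and 37.1 ± 20.8 CPM, with the highest value in air replicate 4 (log2 fold change 0.36, SE 0.585, adjusted p = 0.842).

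The order of the segments was compared between libraries over all members. Over the 92 Ighv members, the rank correlation of shares between a pair of libraries had a median of 0.767 over 6 pairs of spleen air libraries, 0.807 over 6 pairs of spleen PM2.5 libraries and 0.769 over 16 pairs across the groups. In macrophages the medians were 0.821 and 0.784 within and 0.801 across. For the 94 Igkv members they lay between 0.81 and 0.859. These are descriptions across genes, which share sequence and counting. The summed overlap of the Ighv shares of 2 libraries had a median of 71.8% between spleen air libraries, 69.9% between spleen PM2.5, 70.7% between macrophage air and 61.3% between macrophage PM2.5 libraries. For Igkv the medians were 77, 66, 69 and 59.5% in the same order. Similar segments limit this resolution: 15 members, 9 Ighv and 6 Igkv, match another V segment at 98% or more of coding bases. Ighv1-62-2 and Ighv1-71 match at 99.7% of 359 coding bases, with an unbroken identical stretch of 351, and their counts are uncertain.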

How the data were processed

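RNA sequencing counts per gene were deposited by the authors for 18 libraries as raw read counts, without normalization. HTSeq 0.10.0, FastQC 0.10.1 and the builds mm10 and GRCm38 are named in the submitters' processing notes. Aligner, strand setting and annotation release were not given in the sources used here, so reads of near-identical segments may have been split or dropped and antisense reads cannot be told apart. Polyadenylated RNA was prepared with the NEBNext Ultra II kit, per the labels' protocols. Identifiers were matched to GENCODE M21, where 3333 of 55414 had no symbol, with 0.343% of counts. No pair of libraries of a group held the same counts.

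Shares were computed from the raw counts, and CPM with TMM factors within each experiment. PM2.5 was compared with air by edgeR 4.0.16 (quasi-likelihood test, R 4.3.3) over all genes that passed filterByExpr (minimum count 10, total 15), separately in spleen and macrophages. The difference between them was a contrast over all 18 libraries. p-values were Benjamini-Hochberg adjusted over all genes, with a threshold of 0.05. A member that passed the filter only through the group where it is high had to differ, so counts over all 189 members are given first. Scripts were tested on simulated data. DESeq2 1.42.0, other scalings, no filter, a threshold of 0.1, a member minimum of 1000 and a replicate block were alternatives, as was leaving out each library. Python 3.11.15, pandas 2.3.3, scipy 1.17.1 and Biopython 1.88 were also used.

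The text names the 5 most used segments of a locus where a result turns on them, the leader of each library, segments prominent in 1 library, the 4 tested members with the smallest p in each direction, the lambda segments and a list of segments with known antigens. Members and lists were chosen with earlier results of these data known. Chosen after seeing the data were shares per exonic length, scaling by total counts for the direction counts, and leaving out libraries, regrouping macrophage PM2.5 replicate 1 or raising the minimum for those counts. Leaving out both spleen air libraries with Alb was also chosen then. Promoter and protein sequences of V segments were not used here.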

Additional observations from a re-analysis of the deposited data

Results flagged for a closer look

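A library was singled out where its gap to the nearest other library of the group, divided by the range of the group, passed the 95% critical value of Dixon's test. Of 260 groups tested, 54 values did so, 51 high and 3 low, and 47 of them were CPM of named segments. Many of those segments were named because they led or stood out in a library. Values of the same library are also not independent. The chance rate of about 1 in 20 groups is therefore no yardstick for this number.

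Macrophage air replicate 4 had 23 of them. It stood apart in the V share (0.871%), the Ighv share (0.346%), the Igkv share (0.496%) and, on the low side, the Ighv effective number (19.6). In CPM it stood above the other 4 air libraries for Ighv1-26 (172), Ighv1-53 (175), Ighv1-55 (345), Ighv1-72 (85.1), Ighv1-75 (239), Ighv1-80 (255), Ighv1-9 (451), Ighv2-4 (16.1), Ighv9-3 (95.2), Igkv1-122 (6.22), Igkv1-133 (9.7), Igkv10-94 (511), Igkv19-93 (357), Igkv3-2 (621), Igkv4-55 (331), Igkv4-59 (153), Igkv6-15 (78.5), Igkv9-120 (53.7) and Iglv2 (34.8).

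The other macrophage libraries had fewer such values. In air these were, in CPM, Ighv9-2 (19.6), Igkv17-127 (147) and Igkv3-7 (92.1) in replicate 2, and 95.9 Igkv counts per 100 Igkc counts in replicate 3. With PM2.5, replicate 1 stood apart for Ighv1-26 (659), Ighv1-53 (329.9), Igkv1-135 (227) and Igkv4-59 (1005) CPM, replicate 3 for Igkv10-96 (442) CPM and replicate 4 for Ighv1-55 (519), Ighv1-82 (533), Igkv12-44 (923), Igkv3-4 (1283) and Iglv3 (69.6) CPM. Replicate 5 did so for Ighv5-17 (154) CPM and had the lowest kappa part of light chain V counts, 89.4%.

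In spleen, air replicate 2 stood apart for Ighv1-80 (25.2), Ighv3-6 (21.2), Ighv7-1 (4.65), Igkv14-126 (16.2), Igkv3-2 (33.2) and Igkv3-4 (109) CPM and air replicate 4 for Ighv2-2 (21.1) CPM. With PM2.5, replicate 1 did so for Igkv4-63 (348) CPM, replicate 2 for Ighv12-3 (5.74), Ighv7-1 (26.2), Igkv3-2 (65.9), Igkv5-39 (79.4) and Igkv9-124 (199) CPM and replicate 4 for Igkv7-33 (9.93) CPM. Replicate 3 had the lowest ratio of Ighv to heavy chain constant counts, 6.23 per 100.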

How the results depend on the processing

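edgeR's count of 0 members called in each comparison changed with the tool and the filter. DESeq2 called 25 in spleen, 34 in macrophages and 5 for the difference between them. Without the filter the counts were 20, 1 and 3, where 1.55, 0.00322 and 0.917% of all genes were called. At a threshold of 0.1 they were 3 in spleen, beside 0.375%, and 5 for the difference, beside 6.2%. The cause was not tested. Leaving out each library in turn gave 0 to 7 calls in spleen (7 without air replicate 2), 0 to 5 in macrophages (5 without air replicate 4) and 0 to 3 for the difference (3 without macrophage air replicate 4 or PM2.5 replicate 2). Members whose groups did not overlap numbered 24 to 56 in spleen and 12 to 42 in macrophages with 1 library left out, beside 5.53 to 9.15% and 1.8 to 3.65% of all genes. Lower fitted values of 4 macrophage segments changed sign when 1 air library was left out. Their log2 fold changes ranged from -2.14 to 0.40 for Ighv1-75 and from -2.18 to 1.36 for Ighv2-4, both positive without air replicate 4. They ranged from -1.57 to 0.70 for Ighv9-2 and from -1.35 to 0.70 for Igkv3-7, both positive without air replicate 2. Of 252 alternative values for 16 segments, 227 kept direction and side of the threshold, 21 (8 segments) newly passed it and 4 changed sign. To look for pairing, the log2 CPM of each gene in a library was expressed as its deviation from the group mean. Between same-numbered air and PM2.5 libraries these deviations correlated at -0.137 to 0.059 in spleen and -0.143 to 0.284 in macrophages. Only macrophage replicates 4 and 5 passed 0.1, so the numbers were not taken to pair the libraries. The deviations of an air library correlated best with those of its own number in 1 of 4 and 2 of 5 cases. With the replicate number as a block, edgeR called 1 member in spleen, 0 in macrophages and 0 for the difference, beside 0.0181, 0 and 0.512% of all genes. In spleen 17 members were too low for the test, and the part of sequencing depth in this was not tested.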
